A study of Homo sapiens with 5 samples.

Results

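The heterogeneous nuclear ribonucleoproteins (hnRNPs) and RNA-binding proteins related to them were followed as mRNAs in 5 RNA libraries of MDA-MB-231, an established human triple-negative breast cancer cell line. The set holds 31 named genes, matched by symbol, of 12491 gene names over all files. MATR3 stands on 2 rows with different gene identifiers, so the genes occupy 32 of 12497 rows, and all 32 were listed in every library. The 5 groups of 1 library each were cells given a Smart Silencer against the long noncoding RNA LY6E-DT (si-LY6E-DT), cells labelled as transfected with SI-HNRNPC (si-HNRNPC), a negative control (si-NC), RNA recovered by RNA immunoprecipitation (RIP) on magnetic beads with an antibody to HNRNPC (RIP-HNRNPC), and lysate in RIP buffer (RIP-INPUT). All were grown in L15 medium with serum, and the labels name no transgene or clone for any group. The treatment text swaps the silencers of HNRNPC and LY6E-DT, so the library titles were followed. The series compares expression after the 2 silencings and the RNA recovered with HNRNPC. No group has a replicate, so every difference below is between libraries, and no SD, interval or p-value can be given.

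As background, hnRNPs coat nascent transcripts in the nucleus and act in splice site choice, polyadenylation, export, stability and translation of mRNA. The families prefer different bases: the A/B proteins bind UAGG-like stretches, the F/H proteins bind runs of G, HNRNPK and the PCBP proteins bind C-rich stretches, HNRNPL binds CA repeats, and the PTB proteins bind pyrimidine tracts. HNRNPC, which was immunoprecipitated and is not counted in the set, binds runs of U.

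Since HNRNPC binds runs of U, windows of 30 bases around the longest U run in the 3' UTR are shown for the 3 rows of the set with the highest and the 3 with the lowest level in RIP-HNRNPC relative to RIP-INPUT. Sequences are from GENCODE 29 transcripts with positions on GRCh38, written 5′ to 3′ on the transcript strand, and capitals mark the run. The MATR3 window lies within the span of both MATR3 rows, so it is not particular to the row named.
PTBP3 (chr9:112223684-112223713, minus strand): atcaagggaTTTTTTTTTTTTgtattcccc
QKI (chr6:163570888-163570917, plus strand): actcagcTTTTTTTTTTTTTTTTTcctgtt
MATR3, row ENSG00000280987.4_3 (chr5:139329979-139330008, plus strand): tagattttgtaaTTTTTTTccctgagttcc
TAF15 (chr17:35847049-35847078, plus strand): agtgacatttggaTTTTTatttgggtggga
HNRNPA2B1 (chr7:26173255-26173284, minus strand): gtctgggaaggcTTTTTTTgtggggggaaa
HNRNPH2 (chrX:101413936-101413965, plus strand): agtgtacacTTTTTTTTTTTTTaaggatac

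HNRNPC mRNA was examined first, since it checks the label of the knockdown. Its level in FPKM (fragments per kilobase of transcript and per 1e6 fragments) was 40.1 in si-LY6E-DT, 48.8 in the library labelled si-HNRNPC, 52.2 in si-NC, 58.4 in RIP-HNRNPC and 67.4 in RIP-INPUT. The log2 change of −0.10 in the library labelled si-HNRNPC relative to si-NC goes against its label, which is therefore given as a label throughout. HNRNPC mRNA was lower in si-LY6E-DT, with a log2 change of −0.37 relative to si-NC. All 6 markers of the line (VIM, CD44, CAV1, EGFR, MSN and AXL) were at 8.12 FPKM or more in every library, and 3 of the 7 luminal breast markers (ESR1, PGR and CDH1) were listed in none. The luminal list summed to 93.5 FPKM in si-LY6E-DT, 57.9 in the library labelled si-HNRNPC, 82.3 in si-NC, 5.63 in RIP-HNRNPC and 61.4 in RIP-INPUT, mostly from the keratin genes KRT8 and KRT18, and GATA3 was listed in every library at 2.23 FPKM or less. No endothelial marker was listed, the leukocyte list summed to at most 2.18 FPKM and the fibroblast list to at most 2.42 FPKM. Mitochondrially encoded mRNAs took 29.8% of the FPKM sum in RIP-INPUT and between 7.20% and 9.92% in the other 4 libraries. FPKM is relative to the fragments of a library, so less of an mRNA per cell and more of other RNA cannot be told apart. The sequencing depth is unknown. The FPKM sums differed, with 195673 in si-LY6E-DT, 227394 in the library labelled si-HNRNPC, 195575 in si-NC, 157407 in RIP-HNRNPC and 272563 in RIP-INPUT. Changes below were not rescaled to equal sums unless stated.

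The set was highly expressed. Between 26 and 30 of its 32 rows were above the median gene of their library, which lay between 3.68 and 6.06 FPKM. Without mitochondrially encoded mRNAs, its summed FPKM made up 0.885% of the total in si-LY6E-DT, 0.923% in the library labelled si-HNRNPC and 0.920% in si-NC. The share was 0.651% in RIP-HNRNPC against 1.02% in RIP-INPUT, so the immunoprecipitate held the lowest share of the 5 libraries. Of the full FPKM sum it was also lowest in RIP-HNRNPC (0.593%), but RIP-INPUT was then second lowest (0.716%), below the shares of 0.813% in si-LY6E-DT, 0.832% in the library labelled si-HNRNPC and 0.853% in si-NC, so the rank of the input turned with the mitochondrial mRNAs.

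HNRNPAB, an A/B type protein that also binds single-stranded DNA, had the highest mean over the libraries, with levels of 179.7 FPKM in si-LY6E-DT, 233 in the library labelled si-HNRNPC, 185 in si-NC, 66.5 in RIP-HNRNPC and 165 in RIP-INPUT. HNRNPA1, the core A/B protein that shuttles between nucleus and cytoplasm, had 149 FPKM in si-LY6E-DT, 112 in the library labelled si-HNRNPC, 158 in si-NC, 46.7 in RIP-HNRNPC and 196 in RIP-INPUT. PCBP1, a poly-C binding protein whose gene has no intron, had 87.9 FPKM in si-LY6E-DT, 204 in the library labelled si-HNRNPC, 91.9 in si-NC, 33.7 in RIP-HNRNPC and 181 in RIP-INPUT. All 3 were lowest in RIP-HNRNPC. At the other end, PTBP2, the PTB protein of neurons, was at 3.57 FPKM or less in every library. QKI, a KH protein that binds ACUAA-type elements, was at 3.04 FPKM or less except in RIP-HNRNPC, where it was at 13.4.

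**Figure D1:**
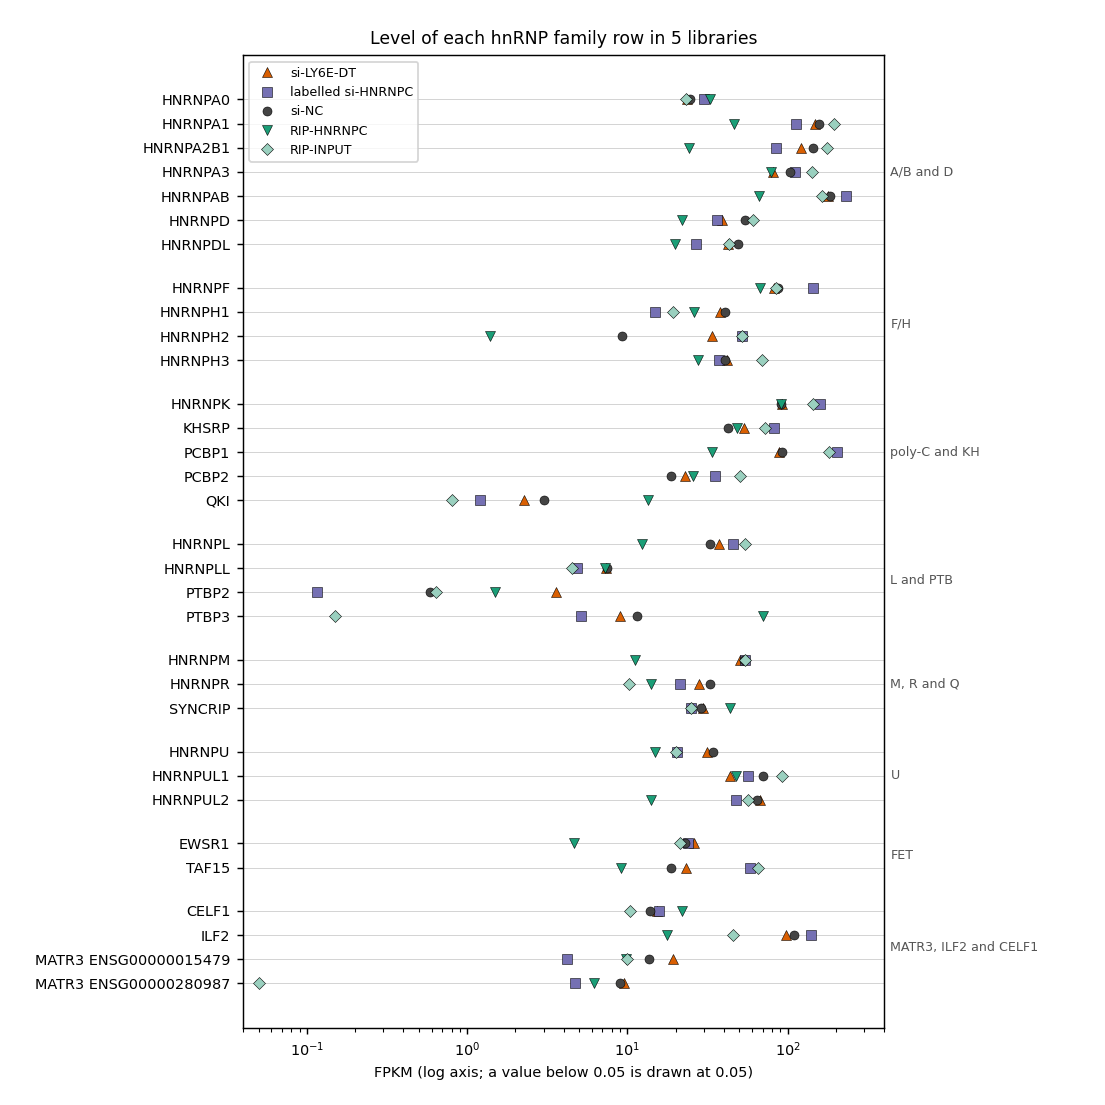
FPKM (log axis, values below 0.05 drawn at 0.05) of the 32 rows of the set, ordered by family, with 1 point per library. RIP-HNRNPC is the lowest point for rows such as HNRNPA2B1 (24.3) and HNRNPM (11.1) and the highest for PTBP3 (70.7) and QKI (13.4).

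Some rows cannot be read alone. In GENCODE 29, 6 of the 32 rows overlap another protein-coding gene on the same strand: both MATR3 rows, HNRNPH2, HNRNPUL2, HNRNPL and SYNCRIP. HNRNPH2 overlaps the read-through gene RPL36A-HNRNPH2, and the MATR3 rows overlap each other. The same annotation holds 74 pseudogenes named after HNRNPA1 and 16 named after HNRNPA3, and the counting of reads that match several places is not given in the sources used here, so the levels of these genes are uncertain.

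The first comparison sets si-LY6E-DT, named by its library title, beside si-NC. How far LY6E-DT itself was silenced is not given here. Nearly all rows stayed within 2-fold of si-NC. A change is log2((FPKM + 1)/(control FPKM + 1)), taken over genes with a mean of at least 1 FPKM in the pair, and a row is said to have risen or fallen if it differed by 2-fold or more, a rule of size and not a test. Of the 32 rows 2 rose, HNRNPH2 and PTBP2, and 0 fell, where 1.66% of all 10473 genes rose and 0.888% fell. The median change was −0.05 for the set and 0.04 for all genes.

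HNRNPH2 (ENSG00000126945.8_3, chrX:101408295-101414133, plus strand, GRCh38), a G-run binding protein, had 33.9 FPKM in si-LY6E-DT against 9.20 FPKM in si-NC, with a log2 change of 1.77. RPL36A-HNRNPH2 had 74.2 FPKM in si-LY6E-DT against 13.2 FPKM in si-NC. The summed level of both was 108 FPKM in si-LY6E-DT against 22.4 FPKM in si-NC, with a log2 change of 2.22, so this sum rose as well. The sum leaves out RPL36A, which the read-through gene also overlaps on the same strand. RPL36A went the other way, with 60.3 FPKM in si-LY6E-DT against 85.3 FPKM in si-NC (log2 −0.49). How reads were divided among these rows is unknown, so the sum does not show that the locus as a whole rose. Relative to RIP-INPUT the direction of HNRNPH2 turned, with 33.9 FPKM in si-LY6E-DT against 52.3 FPKM in RIP-INPUT (log2 −0.61). PTBP2 (ENSG00000117569.18_2, chr1:96721665-96823738, plus strand) had 3.57 FPKM in si-LY6E-DT against 0.586 FPKM in si-NC, with a log2 change of 1.53, and 0.62 with a pseudocount of 5.

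The other 30 rows lay between −0.66 and 0.46. The 7 rows of the A/B and D group lay between −0.48 and −0.04, and none fell. Over all genes 44.4% were below 0, and under quantile normalization HNRNPAB was above it (0.09). HNRNPD, the AU-rich element binding protein also called AUF1, had 38.7 FPKM in si-LY6E-DT against 54.3 FPKM in si-NC (log2 −0.48). HNRNPA3, an A/B protein, had 81.3 FPKM in si-LY6E-DT against 104 FPKM in si-NC (log2 −0.35). HNRNPUL1, a relative of HNRNPU that takes part in the DNA damage response, had the lowest value, with 44.0 FPKM in si-LY6E-DT against 70.1 FPKM in si-NC (log2 −0.66). None of the 3 reached 2-fold. The row ENSG00000015479.18_3 of MATR3, the nuclear matrix protein matrin 3, had 19.2 FPKM in si-LY6E-DT against 13.7 FPKM in si-NC (log2 0.46).

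The second comparison sets the library labelled si-HNRNPC beside the negative control si-NC. Of the 31 rows that passed the filter on low values, 3 rose (HNRNPH2, TAF15 and PCBP1) and 3 fell (HNRNPH1, PTBP3 and MATR3 row ENSG00000015479.18_3). PTBP2, with 0.116 FPKM in the labelled library and 0.586 FPKM in si-NC, did not pass. Over all 10247 genes 12.4% rose and 9.44% fell, near the 9.68% of the set in each direction. The median change was −0.12 for the set and 0.04 for all genes. Quantile normalization gave 2 rows that rose and 4 that fell, and rescaling to the sum left after taking out the 20 highest genes and those for mitochondrial mRNAs and ribosomal proteins gave 2 that rose and 5 that fell. Under both PCBP1 no longer rose (0.93 and 0.94) and HNRNPDL also fell (−1.07 and −1.06), and under rescaling QKI fell too (−1.01). The shares of all genes were not counted under these scalings.

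HNRNPH2 had 52.3 FPKM in the library labelled si-HNRNPC versus 9.20 FPKM in si-NC (log2 2.38), and its sum with RPL36A-HNRNPH2 also rose (log2 1.52). RPL36A, which overlaps the read-through gene and is left out of the sum, went the other way. It had 48.2 FPKM in the library labelled si-HNRNPC versus 85.3 FPKM in si-NC (log2 −0.81), so the sum does not show that the locus as a whole rose. TAF15 (ENSG00000270647.5_3, chr17:35713791-35864615, plus strand), a FET protein that associates with RNA polymerase II, had 58.2 FPKM in the library labelled si-HNRNPC versus 18.7 FPKM in si-NC (log2 1.59). PCBP1 (ENSG00000169564.6_3, chr2:70087454-70089203, plus strand) had 204 FPKM in the library labelled si-HNRNPC versus 91.9 FPKM in si-NC (log2 1.14). KHSRP, a KH protein that promotes decay of mRNAs with AU-rich elements, PCBP2 and HNRNPK stood under 2-fold at 0.93, 0.87 and 0.79, and QKI of the same group lay at −0.88.

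HNRNPH1 (ENSG00000169045.17_1, chr5:179614178-179634784, minus strand), the closest paralog of HNRNPH2, had 14.8 FPKM in the library labelled si-HNRNPC versus 40.5 FPKM in si-NC (log2 −1.39). Of the summed FPKM of the F/H group, HNRNPH1 made up 5.96% in the library labelled si-HNRNPC versus 22.8% in si-NC, and HNRNPH2 made up 21.1% in the library labelled si-HNRNPC versus 5.18% in si-NC. The 2 paralogs thus differed in opposite directions. MATR3 row ENSG00000015479.18_3 (chr5:139293648-139331677, plus strand) had 4.21 FPKM in the library labelled si-HNRNPC versus 13.7 FPKM in si-NC (log2 −1.502), and the sum of both MATR3 rows also fell (−1.26). PTBP3 (ENSG00000119314.15_3, chr9:112217716-112333667, minus strand), a paralog of PTBP1, had 5.14 FPKM in the library labelled si-HNRNPC versus 11.5 FPKM in si-NC (log2 −1.02), and −0.70 with a pseudocount of 5.

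RIP-INPUT is labelled without any knockdown and was also set beside the transfected libraries; these comparisons share libraries with those above. HNRNPH2 had 52.3 FPKM both in the library labelled si-HNRNPC and in RIP-INPUT (log2 −0.0018). TAF15 had 58.2 FPKM in the library labelled si-HNRNPC versus 65.6 FPKM in RIP-INPUT, and HNRNPH1 had 14.8 FPKM in the library labelled si-HNRNPC versus 19.2 FPKM in RIP-INPUT, both within 2-fold. PTBP3 had 5.14 FPKM in the library labelled si-HNRNPC versus 0.150 FPKM in RIP-INPUT (log2 2.42), so its direction turned with the control. PCBP1 had 204 FPKM in the library labelled si-HNRNPC versus 181 FPKM in RIP-INPUT (log2 0.18), and MATR3 row ENSG00000015479.18_3 had 4.21 FPKM in the library labelled si-HNRNPC versus 9.91 FPKM in RIP-INPUT (log2 −1.07). Of the 6 rows called over si-NC, only this MATR3 row was thus past 2-fold in the same direction over RIP-INPUT, PTBP3 was past it in the other direction, and the other 4 were within 2-fold. In the library labelled si-HNRNPC over RIP-INPUT 3 of 31 rows were higher and 2 lower, where 9.11% and 4.03% of all 10185 genes were. In si-LY6E-DT over RIP-INPUT 5 of 32 rows were higher and 4 lower, where 15.9% and 9.96% of all 10366 genes were. In si-NC over RIP-INPUT 6 of 31 rows were higher (PTBP3, MATR3 row ENSG00000280987.4_3, HNRNPR, ILF2, QKI and HNRNPH1) and 3 lower (HNRNPH2, TAF15 and PCBP2), where 14.2% and 10.4% of all 10264 genes were. Centring on the median of all genes gave 5 higher and 4 lower, and the shares of all genes were not counted after centring. The control libraries si-NC and RIP-INPUT thus differed in rows that also differed between si-NC and the labelled library, and the cause was not tested.

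**Figure D2:**
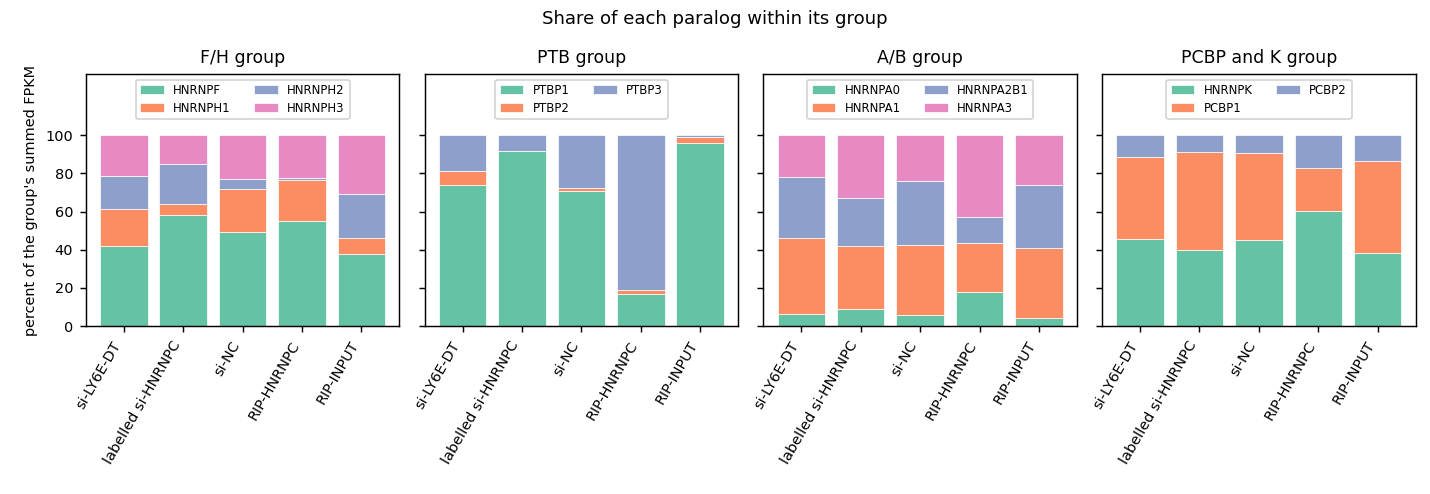
Share of each paralog in the summed FPKM of its group, in percent, as stacked bars for 4 groups, with 1 library per bar. PTBP3 makes up 81.3% of the PTB group in RIP-HNRNPC and 0.806% in RIP-INPUT, and HNRNPH2 makes up 1.14% of the F/H group in RIP-HNRNPC and 23.2% in RIP-INPUT.

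The third comparison asks which of these mRNAs were recovered with HNRNPC. On FPKM as deposited, more rows were lower than higher in the immunoprecipitate. Of 32 rows, 14 were lower by 2-fold or more in RIP-HNRNPC than in RIP-INPUT. The 3 rows higher by 2-fold or more were PTBP3, QKI and MATR3 row ENSG00000280987.4_3. The FPKM sum was 157407 in RIP-HNRNPC and 272563 in RIP-INPUT, and these counts are without rescaling to equal sums. Over all 10284 genes 36.9% were lower and 24.2% higher, against 43.8% and 9.38% of the set. The median was −0.89 for the set and −0.34 for all genes. Centred on the median of all genes, 10 rows were lower and 5 higher, and rescaling gave 13 lower and 5 higher. The shares of all genes were not counted after centring or rescaling, so these counts have no background beside them. Over si-NC in place of the input, 14 of 32 rows were lower and 2 higher, where 38.4% and 20.3% of all 10153 genes were. No library of the series is of the IgG beads that the protocol names, so nonspecific recovery on beads could not be assessed.

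In the A/B and D group 5 of 7 rows were lower. HNRNPA2B1 (ENSG00000122566.20_3, chr7:26173057-26201529, minus strand), an A/B protein with a reported role in reading m6A, had 24.3 FPKM in RIP-HNRNPC against 177 FPKM in RIP-INPUT (log2 −2.82). HNRNPA1 had 46.7 FPKM in RIP-HNRNPC against 196 FPKM in RIP-INPUT (log2 −2.04). HNRNPD, HNRNPAB and HNRNPDL, a relative of HNRNPD, were lower at −1.44, −1.30 and −1.08, of which HNRNPAB (−0.96) and HNRNPDL (−0.74) did not reach 2-fold when centred. HNRNPA3 had 78.5 FPKM in RIP-HNRNPC against 141 FPKM in RIP-INPUT, and HNRNPA0, an A/B protein whose gene has no intron, had 32.8 FPKM in RIP-HNRNPC against 23.4 FPKM in RIP-INPUT, both within 2-fold.

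Both FET rows were lower. TAF15 had 9.10 FPKM in RIP-HNRNPC against 65.6 FPKM in RIP-INPUT (log2 −2.72). EWSR1, the FET protein gene that is fused to transcription factor genes in Ewing sarcoma, had 4.62 FPKM in RIP-HNRNPC against 21.4 FPKM in RIP-INPUT (log2 −1.99). EWSR1 had between 22.9 and 26.1 FPKM in the 3 transfected libraries, so only the immunoprecipitate stood apart. HNRNPM, a splicing factor with a role in epithelial to mesenchymal transition, had 11.1 FPKM in RIP-HNRNPC against 53.9 FPKM in RIP-INPUT (log2 −2.18) and between 50.5 and 54.0 FPKM in the transfected libraries. PCBP1 had 33.7 FPKM in RIP-HNRNPC against 181 FPKM in RIP-INPUT (log2 −2.39), and HNRNPL had 12.4 FPKM in RIP-HNRNPC against 54.2 FPKM in RIP-INPUT (log2 −2.04). HNRNPUL2, a relative of HNRNPU, was lower at −1.92. ILF2, a protein of complexes on double-stranded RNA, and HNRNPH3 were lower at −1.32 and −1.29, and did not reach 2-fold when centred (−0.97 and −0.95).

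HNRNPH2 was the lowest row, with 1.40 FPKM in RIP-HNRNPC against 52.3 FPKM in RIP-INPUT (log2 −4.47). RPL36A-HNRNPH2 had 19.9 FPKM in RIP-HNRNPC against 15.6 FPKM in RIP-INPUT, and the sum of both had 21.3 FPKM in RIP-HNRNPC against 67.9 FPKM in RIP-INPUT (log2 −1.63). The sum was thus lower by 2-fold or more, by less than HNRNPH2 alone. RPL36A, left out of the sum, had 6.82 FPKM in RIP-HNRNPC against 85.9 FPKM in RIP-INPUT (log2 −3.47). HNRNPF and HNRNPH1 of the same group lay at −0.32 and 0.43.

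PTBP3 was the highest row, with 70.7 FPKM in RIP-HNRNPC against 0.150 FPKM in RIP-INPUT (log2 5.96). The transfected libraries held it between 5.14 and 11.5 FPKM, so the input was the lowest of the 5, and over si-NC the change was 2.53. The input lies below the pseudocount, which sets much of this value: with a pseudocount of 5 it was 3.88. QKI (ENSG00000112531.16_2, chr6:163414000-163578596, plus strand) had 13.4 FPKM in RIP-HNRNPC against 0.803 FPKM in RIP-INPUT (log2 2.995), with 1.66 at a pseudocount of 5 and 1.83 over si-NC. MATR3 row ENSG00000280987.4_3 (chr5:139273752-139331671, plus strand) had 6.22 FPKM in RIP-HNRNPC against 9.54e-05 FPKM in RIP-INPUT (log2 2.85, and 1.166 with a pseudocount of 5). The other MATR3 row had 9.85 FPKM in RIP-HNRNPC against 9.91 FPKM in RIP-INPUT, the sum of both changed by 0.65, within 2-fold, and over si-NC the row lay at −0.47. CELF1, which binds GU-rich elements, had 21.8 FPKM in RIP-HNRNPC against 10.5 FPKM in RIP-INPUT, just within 2-fold on the log2 scale used, and was above 2-fold when centred (1.34), as was SYNCRIP (1.12), also called hnRNP Q.

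**Figure D3:**
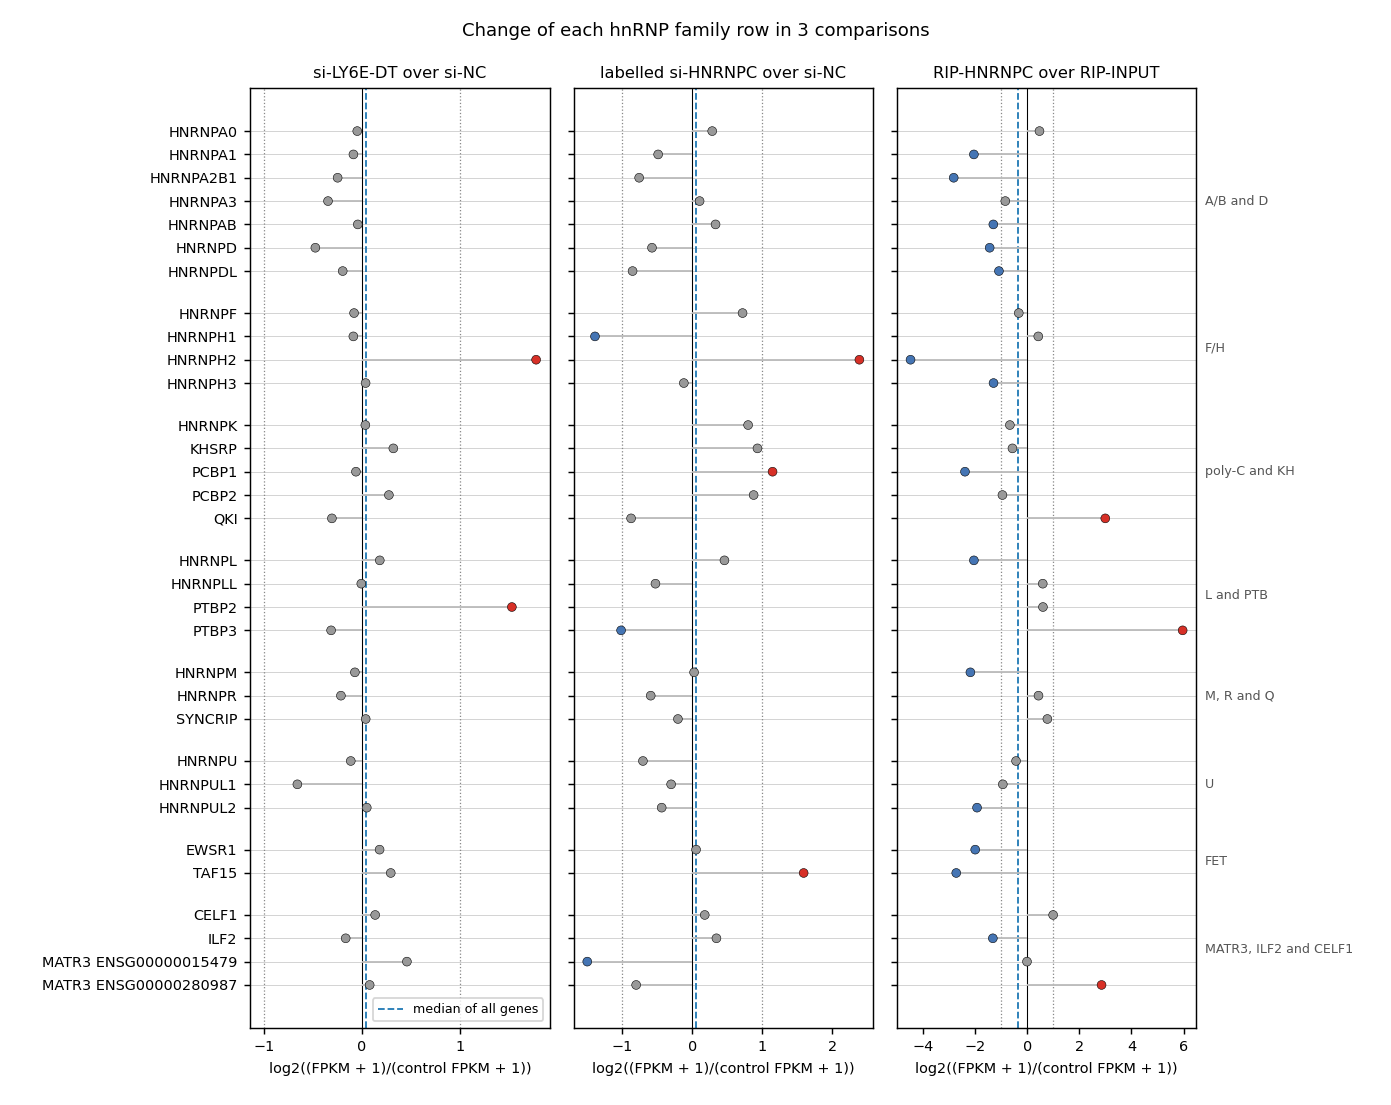
Log2((FPKM + 1)/(control FPKM + 1)) of the 32 rows in 3 comparisons (PTBP2 did not pass the filter in the middle one), with dotted lines at 2-fold and a dashed line at the median of all genes; the scales of the panels differ. Red points are higher and blue points lower by 2-fold or more. In RIP-HNRNPC over RIP-INPUT 14 rows are blue, where 36.9% of all genes were lower. In si-LY6E-DT over si-NC 0 rows are blue, where 0.888% of all genes were lower.

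**Figure D4:**
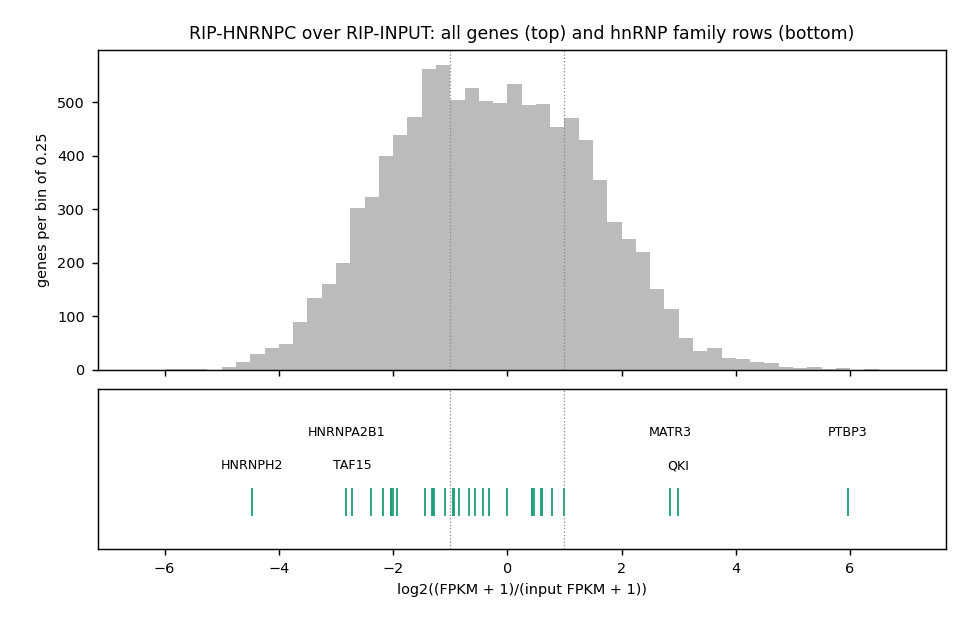
Genes per bin of log2((FPKM + 1)/(input FPKM + 1)) for all 10284 genes (top) and the 32 rows of the set as lines (bottom), for RIP-HNRNPC over RIP-INPUT with dotted lines at 2-fold. The rows lie between HNRNPH2 at −4.47 and PTBP3 at 5.96, with 22 of 32 (68.8%) below 0, against 56.6% of all genes.

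The 3' UTRs of the set were then read for runs of 5 or more U (TTTTT on the sense strand, overlapping letters counted as 1 run) in 1 coding transcript per gene. All 32 rows held such a run, against 78.6% of the 12205 genes with a transcript, and 53.1% of rows against 27.7% of genes held a run of 9 or more. The median 3' UTR was 905 bases in the set and 1072 over all genes. A run of U is a description of these letters and not a binding site.

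Of the 6 rows whose windows are printed above, the longest run was 12 bases in PTBP3, 17 in QKI, 7 in the MATR3 row, 5 in TAF15, 7 in HNRNPA2B1 and 13 in HNRNPH2. A long run thus stood in the lowest row as well as in the highest. QKI had 41 runs and PTBP3 had 18, while MATR3 row ENSG00000280987.4_3 and HNRNPA2B1 had 9 each, HNRNPH2 had 4 and TAF15 had 3. The other MATR3 row, ENSG00000015479.18_3, whose span holds the same window, had 15 runs and a longest run of 9. Its log2 change in RIP-HNRNPC over RIP-INPUT was −0.0081.

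Over 10177 genes with a transcript, the change in RIP-HNRNPC over RIP-INPUT went with the number of runs (Spearman's rho 0.70, across genes that share the same libraries and are not independent), with 3' UTR length (0.60) and inversely with GC content (−0.56). Over the 32 rows of the set these values were 0.49, 0.32 and −0.52. Runs, length and base composition were not separated. Genes with 6 to 10 runs had a median change of 0.40, and the 10 rows of the set in that class had −1.01. With 3 to 5 runs the median was −0.44 for all genes and −1.30 for 9 rows, and with 11 to 20 runs it was 1.15 for all genes and −0.01 for 7 rows. The gap was smaller with 1 to 2 runs, at −1.31 for all genes and −1.66 for 4 rows, and with 21 or more runs the medians were 1.77 for all genes and 1.73 for 2 rows. In all, 24 of the 32 rows lay below the median of the genes in their own class, a description of 1 pair of libraries.

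**Figure D5:**
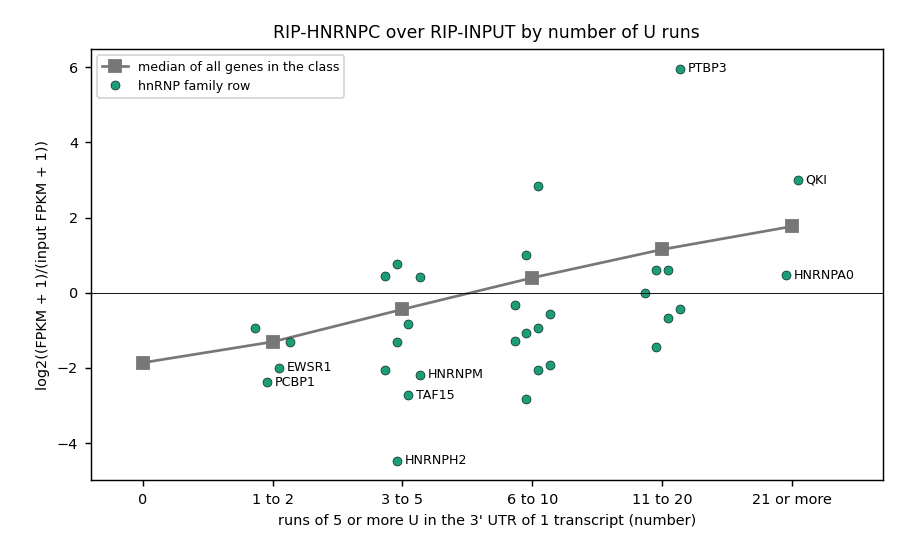
Log2((FPKM + 1)/(input FPKM + 1)) in RIP-HNRNPC over RIP-INPUT by the number of U runs in the 3' UTR, with 1 point per row of the set (spread sideways for legibility) and squares for the median of all genes in each class. The squares lie between −1.86 with 0 runs and 1.77 with 21 or more, and 24 of 32 rows lie below the square of their class.

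A list of 32 other RNA-binding proteins, which includes HNRNPC and PTBP1, was read alongside, and 31 passed the filter in each comparison. In si-LY6E-DT over si-NC 0 rose or fell, with values between −0.77 and 0.75, where 1.66% of all genes rose and 0.888% fell. In the library labelled si-HNRNPC 1 rose, the paraspeckle protein RBM14 with 20.4 FPKM against 6.99 FPKM in si-NC, and 1 fell, the U-rich binding protein TIA1 with 2.53 FPKM against 6.31 FPKM in si-NC. These are 3.23% of the list in each direction, where 12.4% of all genes rose and 9.44% fell. In RIP-HNRNPC over RIP-INPUT 7 were higher and 10 lower, with a median of −0.20. These shares of 22.6% and 32.3% were near those of all genes, of which 24.2% were higher and 36.9% lower, with a median of −0.34. CELF2, a paralog of CELF1, had 37.3 FPKM in RIP-HNRNPC against 5.43 FPKM in RIP-INPUT, and the muscleblind splicing factor MBNL1 had 78.4 FPKM in RIP-HNRNPC against 21.7 FPKM in RIP-INPUT. At the low end, RALY, the close relative of HNRNPC, had 1.79 FPKM in RIP-HNRNPC against 20.4 FPKM in RIP-INPUT.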

How the data were processed

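RNA was taken with Trizol and sequenced from Illumina libraries, per the labels' protocols. The authors deposited FPKM per gene, 1 file per library, per the file headers. The submitters' processing notes list StringTie 1.3.3, HISAT2 2.1.0, cutadapt 1.17, FastQC 0.11.7 and the build GRCh37, with no roles or settings. FPKM are not counts, so no count test was run.

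Changes were taken as log2((FPKM + 1)/(control FPKM + 1)) for genes that both files list and whose mean over the pair is 1 FPKM or more, and were called at 2-fold. Positions, overlaps and 3' UTRs are from GENCODE 29 (GRCh38), matched by gene identifier, with 1 transcript per gene (the APPRIS principal one, then the longest coding part) and no conversion of coordinates. Genes described in full are those past 2-fold, the 3 highest and 3 lowest in each study comparison and the 3 highest levels. Other genes named were chosen after their values were seen. The members and lists were chosen with earlier results of these data known. The calculation was run on simulated data with changes of known size, which checks the arithmetic only and lends no support to the results. Software was pandas 2.3.3, numpy 2.4.6 and matplotlib 3.10.9 under Python 3.11.15. Alternatives changed the pseudocount, filter, scaling, fold, overlapping rows and control.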

Additional observations from a re-analysis of the deposited data

How the results depend on the processing

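The median change of the set moved by less than 0.585 (1.5-fold) under every alternative run, with ranges of −0.09 to −0.00051 (si-LY6E-DT over si-NC), −0.34 to 0.0031 (labelled si-HNRNPC over si-NC), −1.01 to −0.54 (RIP-HNRNPC over RIP-INPUT) and −0.05 to 0.14 (si-NC over RIP-INPUT). Counts moved by over 1.5 times as follows, and the shares of all genes were counted only for the main setting and for a change of control. In si-LY6E-DT over si-NC the 2 rising rows became 1 with a pseudocount of 5, a filter of 5 FPKM, or the rows overlapping another gene left out, 0 at 4-fold, and 5 rising and 4 falling against RIP-INPUT; 1 row fell at 1.5-fold. In the library labelled si-HNRNPC the 3 rising and 3 falling rows became 7 and 9 at 1.5-fold and 1 and 0 at 4-fold, and 5 fell with rescaling. In RIP-HNRNPC the 3 higher rows became 5 with a pseudocount of 0.1, centring or rescaling and 7 at 1.5-fold, and the 14 lower rows became 7 at 4-fold. In si-NC over RIP-INPUT the 3 lower rows became 8 at 1.5-fold, 1 at 4-fold and 1 without overlapping rows, and the 6 higher became 2 at 4-fold. A change of control changed the sign of HNRNPH2 in si-LY6E-DT (−0.61) and of the MATR3 row ENSG00000280987.4_3 in RIP-HNRNPC (−0.47). In the library labelled si-HNRNPC it changed the sign of PTBP3 (2.42), HNRNPH2 (−0.0018) and TAF15 (−0.17). Of these only PTBP3 was past 2-fold in the new direction, and HNRNPH2 in the labelled library was level with RIP-INPUT. The cause was not tested. Summing the MATR3 rows and HNRNPH2 with its read-through gene, chosen after the values were seen, moved no count by over 1.5 times. RPL36A, which the read-through gene also overlaps, was not part of that sum. The scaling alternatives shifted the median of all genes in RIP-HNRNPC over RIP-INPUT to 0 (centring), −0.04 (quantile) and −0.15 (rescaling), against −0.34 as reported, and rescaling shifted that of the library labelled si-HNRNPC over si-NC to −0.13, against 0.04. No paired analysis was possible because each group is 1 library.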

Other observations

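Within the set, the log2 changes of the labelled si-HNRNPC library over si-NC went inversely with transcript length (Spearman's rho −0.69 over 31 rows that share both libraries, and −0.30 over all 10134 genes) and directly with GC content (0.52 over the rows and 0.31 over all genes). PCBP2, with the shortest transcript of the set (1457 bases), had 35.3 FPKM in the labelled si-HNRNPC library against 18.8 FPKM in si-NC. QKI, with the longest (9463 bases), had 1.20 FPKM in the labelled si-HNRNPC library against 3.04 FPKM in si-NC. HNRNPA0, with the next longest (8726 bases), went the other way, with 29.96 FPKM in the labelled si-HNRNPC library against 24.5 FPKM in si-NC. In si-LY6E-DT over si-NC rho with transcript length was −0.23 over 32 rows and 0.01 over 10340 genes. In si-NC over RIP-INPUT, neither labelled with a knockdown, it was 0.45 over 31 rows and 0.31 over 10157 genes. That comparison shares si-NC with the one of the labelled library. The part of transcript length in these changes was not tested.

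PTBP1, the main PTB protein outside neurons, had 35.7 FPKM in si-LY6E-DT, 56.6 in the labelled si-HNRNPC library, 29.4 in si-NC, 14.7 in RIP-HNRNPC and 17.8 in RIP-INPUT. Its log2 change in RIP-HNRNPC over RIP-INPUT was −0.26, within 2-fold. It made up 16.9% of the summed FPKM of the PTB group in RIP-HNRNPC against 95.8% in RIP-INPUT. That share moved mostly with PTBP3, which had 70.7 FPKM in RIP-HNRNPC against 0.150 FPKM in RIP-INPUT.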
